A study of Homo sapiens with 33 samples.

Results

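The response to FOXL2 activation was measured at day 6 of a gonadal differentiation, 2 days after the activation was switched on. The comparison holds 6 of the 33 bulk RNA-seq libraries of the series, the 3 induced (IND) and the 3 control (CTRL) libraries of that day, and it was made across all genes. Of the 58735 genes listed, 19133 had enough counts to be tested. All libraries came from H9-DDdCas9VP192-FOXL2 clone 24, 1 clone made from H9, a human embryonic stem cell line. The clone carries an inducible activator, a catalytically dead Cas9 fused to the VP192 activation domain, and guide RNAs that place it at the FOXL2 promoter. Doxycycline (DOX) turns on the transcription of the activator, and trimethoprim (TMP) keeps its destabilising domain (DD) from sending the protein to degradation. CTRL and IND cells therefore shared the construct and the same differentiation medium, which leads through intermediate mesoderm, and from day 4 only the IND medium also held DOX and TMP. No group received DOX and TMP without FOXL2 activation, so effects of the 2 compounds and of FOXL2 cannot be told apart. The replicates were technical, from wells of 1 differentiation, so the p-values reflect how wells differ, not how differentiations do.

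FOXL2 is a forkhead transcription factor of the ovary. In granulosa cells, the supporting cells that surround the oocyte, it maintains the ovarian fate by keeping testis genes such as SOX9 silent, and its loss lets these cells take on Sertoli-like features. The gonadal supporting cells arise from the coelomic epithelium, a sheet over the intermediate mesoderm that expresses GATA4 and WT1. The induction began at the intermediate mesoderm stage, and day 6 is the first time point after it, so the comparison asks which genes responded early.

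In GRCh38, FOXL2 (ENSG00000183770) occupies positions 138944224 to 138947140 of chromosome 3 and is read from the minus strand. Its head-to-head neighbour FOXL2NB (ENSG00000206262) codes for a protein, is read from the plus strand and begins at 138947234. Past the end of FOXL2 and also read from the minus strand is LINC01391 (ENSG00000244578), a long intergenic RNA without coding sequence that occupies 138935189 to 138944020. The 2 stretches between these genes are shown because all 3 genes were higher in IND. They were read from RefSeq promoter sequences (GRCh38.p14), on the minus strand and 5′ to 3′, and neither overlaps an annotated exon of GENCODE 29. The first has 93 bases (chr3:138947141-138947233) between the starts of FOXL2 and FOXL2NB. The second has 203 bases (chr3:138944021-138944223) before the start of LINC01391. Capitals mark TAAACA, the core that forkhead factors recognise, searched for on both strands (TGTTTA on the other).
FOXL2 to FOXL2NB: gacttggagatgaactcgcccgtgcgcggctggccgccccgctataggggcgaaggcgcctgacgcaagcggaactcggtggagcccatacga
Before LINC01391: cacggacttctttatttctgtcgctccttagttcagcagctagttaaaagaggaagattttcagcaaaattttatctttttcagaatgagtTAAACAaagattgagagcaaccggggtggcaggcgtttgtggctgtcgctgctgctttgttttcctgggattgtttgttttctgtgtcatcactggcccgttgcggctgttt
The 93 bases shared by FOXL2 and FOXL2NB hold no TAAACA, and the stretch before LINC01391 holds it once, 106 bases before the start. These letters occur in the 250 bases before 3860 of 35116 RefSeq starts (11.0%), and a match is not a binding site.

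The 6 libraries had between 34195427 and 43346552 counts, and between 26288 and 27857 genes had a count. Values are CPM, the counts of a gene scaled to a common library size after TMM normalization over the 6 libraries. A gene was taken to be at the floor where each library of a group had 3 counts or fewer, which is 0.0685 to 0.0906 CPM and covers counting error only. On the first principal component, with 38.9% of the variance, the CTRL libraries lay at -42.7, -10.7 and -35.4 and the IND libraries at 15.5, 32.0 and 41.3. The groups did not overlap, and CTRL replicate 2 lay nearest to IND. The labels give the cell type as human embryonic stem cells, while the pluripotency factors were not all kept. POU5F1, a core factor, had 2.63, 3.25 and 1.66 CPM in CTRL and 2.64, 4.69 and 6.94 CPM in IND, against 71.9 ± 3.39 CPM (SD, n = 3) at day 4 on the scale of all 33 libraries. NANOG, TDGF1 and PRDM14 had at most 15 counts in any library of day 6. SOX2, a factor of pluripotent and neural progenitor cells, had 36.4, 41.3 and 45.6 CPM in CTRL and 31.9, 36.4 and 70.9 CPM in IND, against 46.4 ± 4.36 CPM at day 4, and the groups overlapped. LIN28A, an RNA-binding protein of stem and early progenitor cells, had 869.7, 927 and 886 CPM in CTRL and 760.3, 896 and 965 CPM in IND, all below its day 4 level of 1858 ± 113 CPM.

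FOXL2 and its 2 neighbours lay far above CTRL in every IND library. FOXL2 had 0.272, 0.317 and 0.0474 CPM in CTRL and 579, 548 and 465 CPM in IND, from 9, 12 and 2 counts in CTRL. The log2 fold change was 11.32 ± 0.26 (SE) (edgeR quasi-likelihood test, Benjamini-Hochberg adjusted p = 2.11e-11). FOXL2NB had 0, 0 and 3 counts in CTRL and 84.5, 75.5 and 63.0 CPM in IND. The ratio of the summed counts was 2782 (95% counting interval 952 to 13492). LINC01391 had no count in CTRL and 56.8, 36.7 and 40.7 CPM in IND, at least 557-fold above 3 counts per CTRL library. Whether the RNA counted for LINC01391 began at its own start was not tested. IND replicate 1 was the highest for all 3 genes. Of 18 other genes within 1 Mb of FOXL2 that were tested, 1 passed the test, as did 3.66% of all genes tested. It was CLSTN2, a calsyntenin gene almost 1 Mb away and named here after its value was seen, with a log2 fold change of -0.59. The log2 fold changes of the 18 genes lay between -0.60 and 0.73.

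Beyond the locus, most responding genes fell. A total of 700 genes (3.66%) passed the edgeR test at an adjusted p under 0.05, of which 246 (1.29%) were higher and 454 (2.37%) lower in IND. In each of the 700, the 3 IND values did not overlap with the 3 CTRL values, which was also the case in 3567 genes (18.6%) of all those tested, 8.93% with IND higher and 9.71% with IND lower. The higher genes had a median log2 fold change of 1.00 and the lower genes of -0.79, and 123 and 151 of them changed 2-fold or more. The lower genes were the more highly expressed, with a median average log2 CPM of 4.89 against 2.79 for the higher genes and 3.76 for all genes tested. With library totals in place of the TMM factors, the split became 330 higher and 355 lower (48.2% higher against 35.1%), and the median of all genes moved from 0.00 to 0.07. Transcription factors made up 59 of the lower genes (12.996%) and 12 of the higher genes (4.88%), against 6.62% of all genes tested. Homeobox genes alone gave 13 of the lower genes (2.86%) and 2 of the higher genes (0.813%), against 0.538%. Single libraries weighed on these counts. Without IND replicate 2, 348 genes passed the test, and without CTRL replicate 1 or 3, 402 and 451 did. A total of 273 of the 700 calls (79 higher and 194 lower) held whichever 1 library was left out. Below, such calls are said to hold without any 1 library. For the others, each library without which the call was lost is given, with the highest adjusted p. Unless said otherwise, "called", "higher" and "lower" refer to this test. A fall or a rise is a difference of IND from CTRL on the same day, not a change since day 4. The counts below are to be set beside the shares of all genes tested, 3.66% called, 1.29% higher and 2.37% lower.

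**Figure D1:**
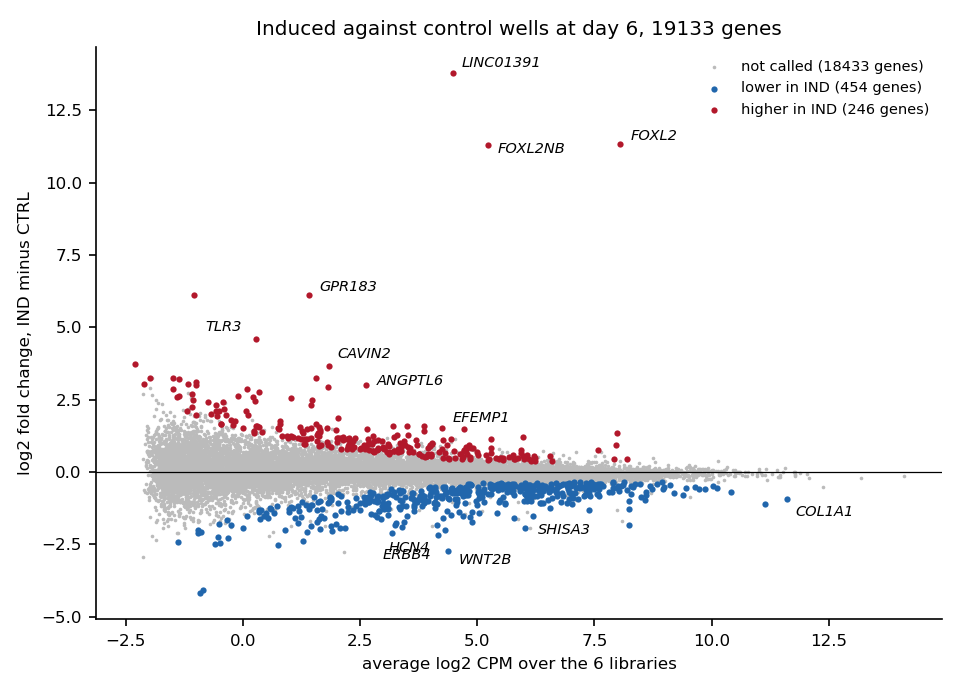
Log2 fold change between IND and CTRL at day 6 (vertical axis) against the average log2 CPM over the 6 libraries (horizontal axis), 1 point for each of 19133 genes, with red for higher and blue for lower in IND. The 3 genes of the FOXL2 locus stand above 11, the other higher genes lie mostly at low expression, and the lower genes reach up to COL1A1.

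Outside the FOXL2 locus, among genes whose mean log2 CPM was 1 or more, GPR183 had the largest rise. GPR183, an oxysterol receptor that guides immune cells, had 0, 0.185 and 0.0237 CPM in CTRL and 4.38, 3.84 and 7.04 CPM in IND, which came from 0, 7 and 1 counts in CTRL and 163, 162 and 308 in IND. All 3 IND libraries lay far above CTRL (log2 fold change 6.11 ± 0.58 (SE), edgeR quasi-likelihood test, Benjamini-Hochberg adjusted p = 9.3e-05). CAVIN2, a coat protein of caveolae, had 0.362, 0.899 and 0.284 CPM in CTRL and 6.401, 6.63 and 6.51 CPM in IND. Its IND values were nearly equal, and its log2 fold change was 3.65 ± 0.33 (SE). AC018647.1, a long intergenic non-coding RNA gene, had 0.242, 0.291 and 1.07 CPM in CTRL and 5.41, 5.28 and 5.05 CPM in IND. CTRL replicate 3 was the highest of the CTRL libraries and still below IND. ANGPTL6, a secreted angiopoietin-like protein, had 1.03, 1.80 and 1.18 CPM in CTRL and 12.1, 9.73 and 10.8 CPM in IND, a log2 fold change of 3.02 ± 0.23 (SE). NOL4, a nucleolar protein gene, had 0.664, 1.296 and 0.403 CPM in CTRL and 5.06, 6.01 and 7.08 CPM in IND. In all of these the groups stayed apart, which the choice of the genes required. CES1, a carboxylesterase, had 0.725, 0.476 and 0.497 CPM in CTRL and 3.25, 4.48 and 2.31 CPM in IND. CA12, a membrane-bound carbonic anhydrase, had 0.936, 0.767 and 0.782 CPM in CTRL and 4.22, 5.45 and 4.13 CPM in IND. The log2 fold changes of AC018647.1, NOL4, CES1 and CA12 were 3.25, 2.94, 2.57 and 2.47, and the calls of all these genes held without any 1 library.

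The largest falls included genes of signalling and of the nervous system. SHISA3, an antagonist of WNT and FGF signalling that acts inside the cell, had 105, 102 and 101 CPM in CTRL and 33.8, 24.0 and 22.8 CPM in IND. The CTRL libraries were nearly equal, and all IND libraries lay far below them (log2 fold change -1.94 ± 0.13 (SE), edgeR quasi-likelihood test, Benjamini-Hochberg adjusted p = 6.02e-07). ERBB4, a neuregulin receptor, had 32.5, 29.3 and 33.8 CPM in CTRL and 9.36, 8.03 and 6.81 CPM in IND, with all CTRL values above all IND values and a log2 fold change of -1.98 ± 0.14 (SE). HCN4, the pacemaker channel of the sinus node, had 34.5, 30.9 and 23.2 CPM in CTRL and 5.78, 7.81 and 6.05 CPM in IND, a log2 fold change of -2.17 ± 0.17 (SE). WNT2B, a WNT ligand, had 46.9, 22.1 and 38.8 CPM in CTRL and 6.99, 6.25 and 3.02 CPM in IND. CTRL replicate 2 was the lowest of its group, and the log2 fold change of -2.73 ± 0.44 (SE) was the largest fall among these genes. Its adjusted p was 0.0399 by edgeR, and the call was lost without CTRL replicates 1 or 3 or IND replicate 2 (adjusted p up to 0.168 by edgeR). HPCAL4, a neuronal calcium sensor, had 16.6, 11.1 and 16.1 CPM in CTRL and 4.76, 3.15 and 2.22 CPM in IND. CNTN6 and CNTN2, neuronal adhesion molecules, had log2 fold changes of -2.03 ± 0.26 (SE) and -1.96 ± 0.40 (SE). The call of CNTN2 was lost without CTRL replicates 1 or 3 or IND replicate 2 (adjusted p up to 0.127 by edgeR). CSMD1, a complement inhibitor of the brain and other tissues, had 3.44, 4.05 and 4.64 CPM in CTRL and 0.565, 0.923 and 0.845 CPM in IND, a log2 fold change of -2.37 ± 0.28 (SE). The calls of SHISA3, ERBB4, HCN4, HPCAL4, CNTN6 and CSMD1 held without any 1 library.

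**Figure D2:**
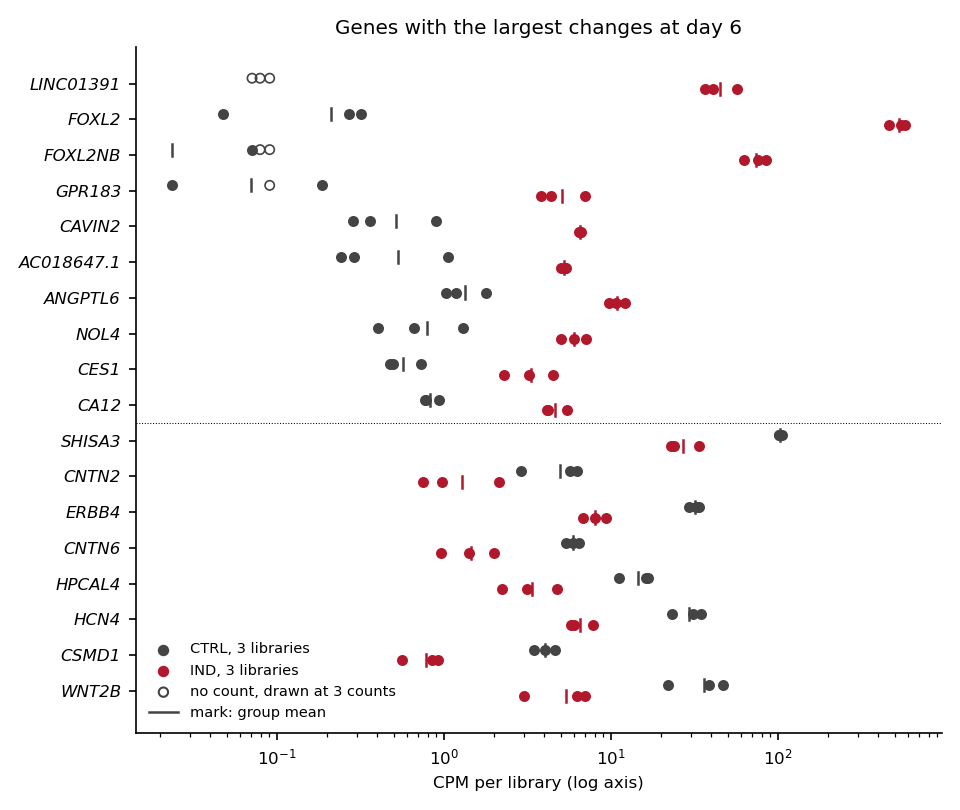
CPM of each library (log axis) for the genes described above, with the largest log2 fold changes at day 6 in each direction, with the 3 CTRL libraries in grey, the 3 IND libraries in red and a mark at each group mean. Open circles are libraries without a count, drawn at the CPM of 3 counts. In every gene the 2 groups do not overlap, which the choice of the genes required.

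Some genes of the coelomic epithelium were lower in IND than in CTRL, among them 2 of its regulators. Of 18 tested members of this list, 5 were lower (GATA4, WT1, TBX18, BNC1 and CALB2) and 1 was higher (MSLN), and the median log2 fold change was -0.26 against 0.00 over all genes tested. WT1, a zinc finger factor needed for the gonadal ridge, had 23.7, 23.5 and 24.9 CPM in CTRL and 13.6, 9.28 and 7.49 CPM in IND. IND lay below CTRL in every library (log2 fold change -1.25 ± 0.18 (SE), edgeR quasi-likelihood test, Benjamini-Hochberg adjusted p = 0.000677). GATA4, the earliest factor of the gonadal ridge, had 233, 249 and 172 CPM in CTRL and 108, 135 and 126 CPM in IND. Its log2 fold change was -0.82 ± 0.13 (SE), and the call was lost without CTRL replicate 1 (adjusted p = 0.108 by edgeR). TBX18, a T-box factor of the coelomic epithelium and its derivatives, had 17, 16.98 and 15.3 CPM in CTRL and 5.94, 4.29 and 3.04 CPM in IND. This was the largest fall of the list, with a log2 fold change of -1.90 ± 0.21 (SE). BNC1, a mesothelial zinc finger factor, had 136, 120.5 and 117 CPM in CTRL and 104, 93.1 and 71.4 CPM in IND, and CALB2, the mesothelial calcium-binding protein calretinin, had 9.30, 9.34 and 7.11 CPM in CTRL and 5.33, 5.02 and 5.09 CPM in IND. In both the groups did not overlap, with log2 fold changes of -0.48 and -0.74. The call of BNC1 was lost without CTRL replicates 1, 2 or 3 or IND replicates 2 or 3 (adjusted p up to 0.275 by edgeR), and that of CALB2 without CTRL replicates 1 or 2 or IND replicates 2 or 3 (adjusted p up to 0.145 by edgeR). MSLN, the mesothelial surface protein mesothelin, was the exception with 0.966, 0.661 and 0.497 CPM in CTRL and 1.48, 1.78 and 2.24 CPM in IND. The rise of MSLN (log2 fold change 1.38 ± 0.35 (SE)) was lost without CTRL replicates 2 or 3 or IND replicates 2 or 3 (adjusted p up to 0.153 by edgeR). KRT19, KRT18 and KRT8, keratins of simple epithelia, did not pass the test (-0.24, -0.28 and -0.19 on the log2 scale), nor did UPK3B, TCF21, LRRN4, PDPN, ALDH1A2, EMX2, ITLN1, GATA6 and CBX2. LHX9 and NR5A1, markers of the later gonadal ridge, had too few counts to be tested.

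The level of these genes before induction was read from the 3 libraries of day 4, with CPM on the scale of all 33 libraries. WT1 had 0.0116 ± 0.0200 CPM at day 4, 24.2 ± 0.926 CPM in CTRL and 10.1 ± 3.12 CPM in IND (SD, n = 3 each). TBX18 had 0.156 ± 0.187 CPM at day 4, 16.6 ± 0.854 CPM in CTRL and 4.40 ± 1.46 CPM in IND. GATA4 had 54.9 ± 5.67 CPM at day 4, 219 ± 39.8 CPM in CTRL and 122 ± 13.6 CPM in IND. For these 3 genes the IND libraries lay above day 4 and below CTRL. DKK1 had 80.8 ± 33.6 CPM at day 4, 21.6 ± 2.03 CPM in CTRL and 38.2 ± 3.98 CPM in IND. EFEMP1 had 19.4 ± 11.1 CPM at day 4, 9.93 ± 1.70 CPM in CTRL and 28.1 ± 4.45 CPM in IND, with day 4 values that overlapped with those of both groups. HCN4 had 7.40 ± 2.19 CPM at day 4, 29.7 ± 5.63 CPM in CTRL and 6.51 ± 1.10 CPM in IND, with IND close to day 4. The differences from day 4 were not tested.

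**Figure D3:**
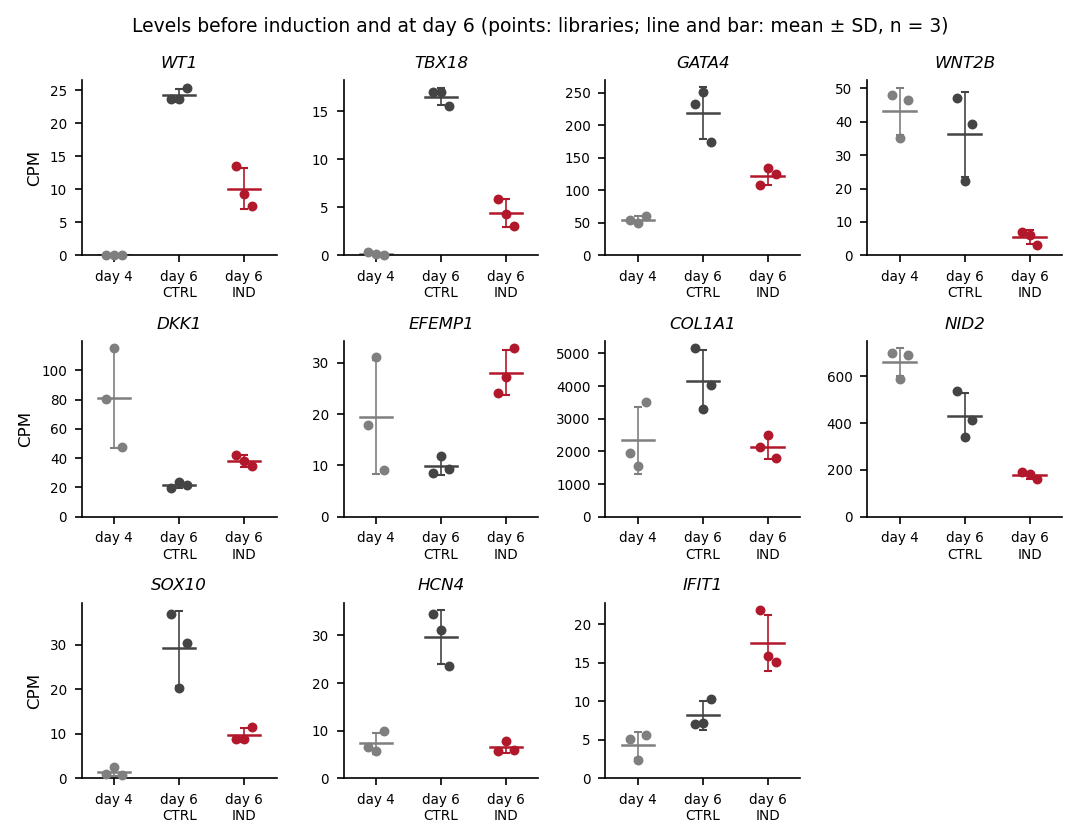
CPM on the scale of all 33 libraries (vertical axis, from 0) of 11 genes at day 4, before induction, and at day 6 in CTRL and IND; points are libraries, and lines with bars are the mean ± SD of 3. For WT1, TBX18, GATA4 and SOX10 the IND libraries lie between day 4 and CTRL, while for NID2 and WNT2B they are the lowest.

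Among genes of later gonadal stages, the calls made 2 days after induction were falls, although with library totals as scaling 1 gene was higher in each of the first 2 lists. In the list of transitional and early supporting gonadal cells, 1 of 6 tested genes was lower and none was higher by edgeR (2 at an unadjusted p under 0.05, 2 with DESeq2). The call was 16.7% of the list, against 3.66% of all genes tested. GATA2, a zinc finger factor, fell from 11.0, 11.8 and 9.31 CPM in CTRL to 3.71, 4.85 and 4.02 CPM in IND, and the call held without any 1 library (log2 fold change -1.35 ± 0.18 (SE), edgeR quasi-likelihood test, Benjamini-Hochberg adjusted p = 0.000332). OSR1, a factor of the intermediate mesoderm, had 6.98, 7.17 and 4.07 CPM in CTRL and 10.5, 8.24 and 12.9 CPM in IND. The OSR1 values did not overlap, but the adjusted p was 0.0657 by the edgeR test, and it was 0.00468 at day 8, with a log2 fold change of 2.30. TAC1, a tachykinin precursor, had 0.151, 0.159 and 0 CPM in CTRL and 1.13, 0.592 and 0.343 CPM in IND (adjusted p = 0.0588 by the edgeR test). TAC1 and OSR1 were both called by DESeq2. LGR5, NR2F2 and IRX3 did not pass the test. At day 8, 4 of the 6 genes were higher and 0 lower, with a median log2 fold change of 0.94. Of 23 tested genes of the granulosa lineage and of reported FOXL2 targets, 4 were lower and none was higher by edgeR (5 at an unadjusted p under 0.05, 1 with DESeq2). The median log2 fold change was -0.02. At day 8, 6 of these genes were higher and 4 lower. STAR, the protein that brings cholesterol into mitochondria for steroid synthesis and a known target of FOXL2 repression, had 18.9, 12.6 and 12.5 CPM in CTRL and 7.99, 5.92 and 5.41 CPM in IND. The call held without any 1 library (log2 fold change -1.19 ± 0.20 (SE), edgeR quasi-likelihood test, Benjamini-Hochberg adjusted p = 0.00197). TNFAIP3, an inhibitor of NF-kB, had 32.5, 26.4 and 34.7 CPM in CTRL and 21.8, 19.6 and 15.6 CPM in IND. FOXO1, a forkhead factor of granulosa cells, had 31.4, 24.3 and 31.1 CPM in CTRL and 21.7, 21.3 and 15.8 CPM in IND. RSPO1, the secreted WNT enhancer of the early ovary, had 4.802, 2.49 and 3.93 CPM in CTRL and 1.29, 1.78 and 1.99 CPM in IND. The calls were lost without CTRL replicate 1 (adjusted p = 0.0662 by edgeR) for TNFAIP3, CTRL replicates 1 or 3 or IND replicates 2 or 3 (adjusted p up to 0.185 by edgeR) for FOXO1 and CTRL replicates 1 or 3 or IND replicates 1 or 2 (adjusted p up to 0.187 by edgeR) for RSPO1. FST, the activin antagonist follistatin, had 26.6, 31.9 and 34.6 CPM in CTRL and 24.3, 22.7 and 30.1 CPM in IND. AMH, the hormone of growing follicles and Sertoli cells, had 24.1, 15.5 and 16.4 CPM in CTRL and 19.1, 18.8 and 17.2 CPM in IND. In neither gene did the difference pass the test (log2 fold changes -0.27 and -0.02). WNT4, INHA, INHBA, AMHR2, BMP2, ESR2, KITLG, FSHR, PTGS2, SOD2, IER3, PPARGC1A, MAF, CDKN1B, NR4A1, SMAD3 and RUNX1 did not pass it either.

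In the testis pathway, 4 of 11 tested genes were lower and none was higher by edgeR (0 at an unadjusted p under 0.05, 0 with DESeq2). The calls were 36.4% of the list, against 3.66% of all genes tested, and the median log2 fold change was -0.49. At day 8, 1 gene of the list was higher and 3 were lower. SOX9, the factor that directs Sertoli cell fate, had 26.4, 17.4 and 26.8 CPM in CTRL and 14.0, 15.04 and 18.5 CPM in IND. CTRL replicate 2 lay below IND replicate 3, so that the groups overlapped, and SOX9 did not pass the test (log2 fold change -0.57 ± 0.17 (SE), edgeR quasi-likelihood test, Benjamini-Hochberg adjusted p = 0.0767). SOX8, its close relative, had 26.6, 16.5 and 21.2 CPM in CTRL and 13.6, 13.6 and 12.7 CPM in IND. SOX10, the third member of the group and a factor of neural crest and glia, had 36.8, 20.1 and 30.0 CPM in CTRL and 8.93, 8.76 and 11.5 CPM in IND. SOX10 is counted again among the neural crest and glial markers below. FGFR2, the receptor through which FGF9 acts in the testis, had 304, 297 and 344 CPM in CTRL and 225, 218 and 230.3 CPM in IND. PTGER4, a prostaglandin E2 receptor, had 11.7, 10.8 and 10.2 CPM in CTRL and 7.34, 4.26 and 2.90 CPM in IND. On the log2 scale the changes of SOX8, SOX10, FGFR2 and PTGER4 were -0.69, -1.57, -0.49 and -1.18. Of these, SOX10 held without any 1 library, while SOX8 was lost without CTRL replicates 1 or 3 or IND replicates 2 or 3 (adjusted p up to 0.117 by edgeR), PTGER4 without CTRL replicates 1, 2 or 3 or IND replicate 2 (adjusted p up to 0.201 by edgeR) and FGFR2 without IND replicate 2 (adjusted p = 0.0648 by edgeR). NR0B1, FGF9, PTGDS, PTCH1, MAP3K4 and CITED4 did not pass the test. Of 14 tested genes of intermediate mesoderm and nephron progenitors, none was called by edgeR (3 higher and 1 lower at an unadjusted p under 0.05, 2 higher and 0 lower with DESeq2). OSR1 and EYA1 had the smallest p-values, and EYA1, a cofactor in kidney development, had a log2 fold change of 0.60.

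WNT genes fell more often than they rose. Of 52 tested ligands, receptors, antagonists and targets, 11 were lower and 2 higher, and the median was -0.17. Among the ligands and R-spondins, WNT2 had 2.57, 3.55 and 2.39 CPM in CTRL and 0.538, 0.237 and 0.685 CPM in IND, a log2 fold change of -2.53 ± 0.37 (SE). WNT2 had no count in the 3 libraries of day 4, and its call held without any 1 library (edgeR quasi-likelihood test, Benjamini-Hochberg adjusted p = 0.000599). RSPO2, an R-spondin, had 2.11, 0.952 and 2.53 CPM in CTRL and 0.672, 0.734 and 0.434 CPM in IND, a log2 fold change of -1.61 ± 0.40 (SE). The call of RSPO2 was lost without CTRL replicates 1 or 3 or IND replicates 2 or 3 (adjusted p up to 0.178 by edgeR). Of the 2 genes that rose, DKK1 is a secreted WNT antagonist and FZD4 a receptor. DKK1 had 19.7, 23.6 and 21.1 CPM in CTRL and 42.5, 37.98 and 34.7 CPM in IND. The DKK1 call held without any 1 library, with a log2 fold change of 0.84 ± 0.12 (SE). FZD4 had 44.4, 50.7 and 44.5 CPM in CTRL and 66.6, 60.0 and 65.4 CPM in IND, a log2 fold change of 0.46 ± 0.10 (SE), and its call was lost without CTRL replicate 3 or IND replicates 2 or 3 (adjusted p up to 0.0830 by edgeR). Without 1 library, between 3 and 12 genes of the list were lower, and 8 of the 13 calls were lost in each case without CTRL replicate 1, CTRL replicate 3 or IND replicate 2.

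Of 49 tested genes of TGF-beta, activin and BMP signalling, 7 were lower and 1 was higher, and 7 of these 8 calls held without any 1 library. BMP4, a ligand that patterns ventral and lateral mesoderm, had 214, 211 and 167 CPM in CTRL and 103, 112 and 122 CPM in IND. All IND libraries lay below CTRL (log2 fold change -0.81 ± 0.11 (SE), edgeR quasi-likelihood test, Benjamini-Hochberg adjusted p = 0.000364). TGFB2, a TGF-beta ligand, had 103, 151 and 109 CPM in CTRL and 58.6, 63.5 and 61.6 CPM in IND, with CTRL replicate 2 the highest. INHBE, an inhibin subunit gene that is also a target of the stress response, had 8.40, 6.67 and 6.61 CPM in CTRL and 2.18, 3.62 and 2.86 CPM in IND. NOG, the BMP antagonist noggin, had 23.0, 24.2 and 26.8 CPM in CTRL and 11.1, 14.9 and 13.9 CPM in IND. On the log2 scale the changes of TGFB2, INHBE and NOG were -0.98 ± 0.13 (SE), -1.32 ± 0.22 (SE) and -0.89 ± 0.14 (SE). TGFBR3, the co-receptor betaglycan that also binds inhibin, was the gene that rose, with 35.1, 52.3 and 47.9 CPM in CTRL and 68.4, 79.6 and 82.8 CPM in IND and a log2 fold change of 0.77 ± 0.13 (SE). CTRL replicate 1 was its lowest library.

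Genes of FGF and PDGF signalling that were called all fell, receptors among them, although with library totals as scaling 2 were higher and 4 lower. Of 38 tested genes, 6 were lower and none was higher by edgeR (5 at an unadjusted p under 0.05, 2 with DESeq2). The median was -0.03. FGFR3, an FGF receptor, had 174, 139 and 130.1 CPM in CTRL and 87.2, 98.3 and 107 CPM in IND, a log2 fold change of -0.60 ± 0.12 (SE). FLRT2, an FGF receptor partner and guidance molecule, had 139, 126 and 134 CPM in CTRL and 91.8, 68.4 and 67.4 CPM in IND, a log2 fold change of -0.81 ± 0.12 (SE). Both calls held without any 1 library. PDGFRA, the receptor that marks mesoderm and mesenchyme, had 593, 580.5 and 626 CPM in CTRL and 482, 419.5 and 359 CPM in IND, a log2 fold change of -0.51 ± 0.11 (SE), and FLRT1 had 4.86, 2.06 and 3.39 CPM in CTRL and 1.48, 1.75 and 1.46 CPM in IND. The call of PDGFRA was lost without IND replicates 2 or 3 (adjusted p up to 0.0712 by edgeR), and that of FLRT1 without CTRL replicates 1 or 3 or IND replicates 1, 2 or 3 (adjusted p up to 0.267 by edgeR). Of 24 tested genes of the retinoic acid pathway, 3 were lower and 1 was higher. RDH10, the enzyme that makes retinaldehyde, had 193, 145 and 180.1 CPM in CTRL and 111, 93.8 and 71.6 CPM in IND, a log2 fold change of -0.91 ± 0.15 (SE). DHRS3, which reduces retinaldehyde back to retinol, had 54.7, 46.6 and 50.05 CPM in CTRL and 37.9, 35.5 and 30.9 CPM in IND, and RXRG, a retinoid X receptor, had 5.10, 3.44 and 5.49 CPM in CTRL and 2.74, 2.60 and 2.22 CPM in IND. RARRES3, a retinoic acid responsive phospholipase, had 0, 0.0794 and 0.189 CPM in CTRL and 1.32, 0.616 and 0.457 CPM in IND and was under 10 counts in each CTRL library. None of the 4 calls held throughout. They were lost without CTRL replicate 1 (adjusted p = 0.162 by edgeR) for RDH10, IND replicates 2 or 3 (adjusted p up to 0.0633 by edgeR) for DHRS3, CTRL replicates 1 or 3 or IND replicates 2 or 3 (adjusted p up to 0.213 by edgeR) for RXRG and CTRL replicates 1 or 2 or IND replicates 1 or 2 (adjusted p up to 0.118 by edgeR) for RARRES3. Of 23 tested Notch genes, 3 were lower and none was higher by edgeR (2 at an unadjusted p under 0.05, 0 with DESeq2). The median was -0.36. NOTCH2, a receptor, had 456, 345 and 381 CPM in CTRL and 236, 225 and 231 CPM in IND, a log2 fold change of -0.77 ± 0.11 (SE), and its call held without any 1 library. HES5, a target of the pathway in neural progenitors, had 4.71, 3.65 and 9.95 CPM in CTRL and 1.67, 1.47 and 2.17 CPM in IND. HES1, a target in many tissues, had 67.8, 59.8 and 62.7 CPM in CTRL and 40.5, 47.6 and 53.4 CPM in IND. The calls were lost without CTRL replicate 1 or IND replicate 2 (adjusted p up to 0.0881 by edgeR) for HES5 and CTRL replicates 1 or 3 or IND replicates 1 or 2 (adjusted p up to 0.185 by edgeR) for HES1.

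Genes of the interferon response and viral RNA sensing that were called all rose. Of 40 tested genes, 6 were higher and none was lower by edgeR (1 at an unadjusted p under 0.05, 0 with DESeq2). The median was 0.39, and 5 of the 40 had a log2 fold change below 0. TLR3, the endosomal receptor of double-stranded RNA, had 0.0604, 0.159 and 0.0474 CPM in CTRL and 3.15, 1.75 and 1.71 CPM in IND. The CTRL libraries held 2, 6 and 2 counts, and the log2 fold change was 4.59 ± 0.50 (SE) (edgeR quasi-likelihood test, Benjamini-Hochberg adjusted p = 4.68e-05). IFIT1, an interferon-induced protein that binds viral RNA, had 7.04, 7.12 and 10.2 CPM in CTRL and 21.9, 15.9 and 15.2 CPM in IND, with IND replicate 1 the highest. IRF1, a transcription factor of the interferon response, had 6.67, 7.65 and 7.82 CPM in CTRL and 17.1, 11.2 and 11.6 CPM in IND. PSMB8, a subunit of the immunoproteasome, had 0.0604, 0.0265 and 0.118 CPM in CTRL and 0.511, 0.545 and 0.525 CPM in IND. The log2 fold changes of IFIT1, IRF1 and PSMB8 were 1.12 ± 0.18 (SE), 0.85 ± 0.18 (SE) and 2.86 ± 0.66 (SE). The calls of TLR3 and IFIT1 held without any 1 library, while that of IRF1 was lost without CTRL replicate 1 (adjusted p = 0.0860 by edgeR) and that of PSMB8 without CTRL replicates 1 or 2 or IND replicates 2 or 3 (adjusted p up to 0.104 by edgeR). Without 1 library, between 3 and 7 genes of the list were higher. Of 42 tested complement and coagulation genes, 4 were higher and 2 lower, with a median of 0.40. F10, coagulation factor X, had 11.3, 12.7 and 9.52 CPM in CTRL and 19.5, 20.8 and 21.7 CPM in IND, and SERPINA5, the inhibitor of protein C, had 1.63, 2.41 and 2.20 CPM in CTRL and 5.49, 5.47 and 6.26 CPM in IND. C1R, a protease of the classical pathway, had 4.59, 6.69 and 5.68 CPM in CTRL and 10.2, 10.1 and 9.94 CPM in IND, and C7, a part of the membrane attack complex, had 0.332, 0.185 and 0.213 CPM in CTRL and 1.02, 1.11 and 0.982 CPM in IND. Their log2 fold changes were 0.89, 1.46, 0.83 and 2.09. Of the genes that fell, PLAT, the tissue plasminogen activator, had 535, 394 and 483 CPM in CTRL and 170.3, 132 and 93.4 CPM in IND, a log2 fold change of -1.83 ± 0.23 (SE). F10 and SERPINA5 held without any 1 library. C1R was lost without CTRL replicate 1 or IND replicate 2 (adjusted p up to 0.0673 by edgeR), C7 without CTRL replicate 3 or IND replicate 2 (adjusted p up to 0.0739 by edgeR) and PLAT without CTRL replicates 1 or 3 (adjusted p up to 0.0987 by edgeR).

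Chains of type I and type VI collagen fell. Of 38 tested collagen genes, 7 were lower and 2 higher, with a median of -0.26. COL1A1, a chain of type I collagen, had 5163, 3292 and 3962 CPM in CTRL and 2154, 2523 and 1797 CPM in IND. COL1A2, its partner chain, had 3572, 2349 and 3229 CPM in CTRL and 1638, 1471 and 1195 CPM in IND. CTRL replicate 2 was nearest to IND for both, and the log2 fold changes were -0.94 ± 0.17 (SE) and -1.09 ± 0.16 (SE). COL1A2 held without any 1 library, and COL1A1 was lost without CTRL replicate 3 (adjusted p = 0.0784 by edgeR). COL6A3, a chain of type VI collagen, had 187, 146 and 224 CPM in CTRL and 97.7, 98.7 and 95.4 CPM in IND, and COL16A1, a fibril-associated collagen, had 14.6, 8.97 and 11.4 CPM in CTRL and 5.92, 7.06 and 7.40 CPM in IND. The call of COL6A3 was lost without CTRL replicate 1 (adjusted p = 0.0598 by edgeR), and that of COL16A1 without CTRL replicates 1 or 3 or IND replicates 1 or 2 (adjusted p up to 0.167 by edgeR). COL24A1, a minor fibrillar collagen, rose from 0.211, 0.185 and 0.308 CPM to 1.67, 1.85 and 1.74 CPM, a log2 fold change of 2.87 ± 0.39 (SE) that held without any 1 library. COL9A1, a chain of cartilage collagen, had 5.71, 6.77 and 7.84 CPM in CTRL and 9.79, 10.7 and 11.1 CPM in IND, and its call was lost without CTRL replicates 1, 2 or 3 or IND replicates 2 or 3 (adjusted p up to 0.201 by edgeR).

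Matrix glycoproteins and proteoglycans moved in both directions, with 7 higher and 5 lower of 61 tested. The basement membrane and bone matrix proteins NID2, NPNT, SPARC and MATN2 fell. NID2, nidogen 2, had 536, 341 and 409 CPM in CTRL and 191, 182 and 163 CPM in IND, a log2 fold change of -1.26 ± 0.14 (SE). NPNT, an integrin ligand of the kidney, had 179, 154 and 199 CPM in CTRL and 90.7, 87.1 and 69.3 CPM in IND, a log2 fold change of -1.11 ± 0.12 (SE). SPARC, osteonectin, had 1838, 1477 and 1735 CPM in CTRL and 1123, 1070.3 and 922 CPM in IND, and MATN2, matrilin 2, had 57.0, 38.3 and 47.6 CPM in CTRL and 26.9, 23.0 and 19.9 CPM in IND. EFEMP1, fibulin 3, rose, with 8.58, 11.8 and 9.24 CPM in CTRL and 24.2, 27.3 and 33.2 CPM in IND and a log2 fold change of 1.52 ± 0.16 (SE) (edgeR quasi-likelihood test, Benjamini-Hochberg adjusted p = 2.77e-05). These 5 calls held without any 1 library. THBS1, the TGF-beta activator thrombospondin 1, had 15.3, 13.5 and 12.9 CPM in CTRL and 32.6, 26.4 and 57.0 CPM in IND. IGFBP7, an IGF-binding protein of the matrix, had 1.66, 1.40 and 1.54 CPM in CTRL and 2.501, 3.86 and 7.04 CPM in IND. LAMA3, a laminin chain of epithelia, had 0.423, 0.344 and 0.450 CPM in CTRL and 0.861, 2.11 and 1.85 CPM in IND. IND replicate 3 was the highest library for THBS1 and IGFBP7, and IND replicate 1 was the lowest IND library for LAMA3. The calls were lost without CTRL replicates 1, 2 or 3 (adjusted p up to 0.241 by edgeR) for THBS1, CTRL replicates 1 or 3 or IND replicate 3 (adjusted p up to 0.121 by edgeR) for IGFBP7 and CTRL replicate 1 or IND replicate 2 (adjusted p up to 0.0893 by edgeR) for LAMA3. Without CTRL replicate 1, 1 gene of the list was higher. Of 27 tested cadherins and protocadherins, PCDH9 and PCDH18 were lower (7.41% called, against 3.66% of all genes tested). Their log2 fold changes were -0.68 ± 0.12 (SE) and -0.51 ± 0.09 (SE), and both calls held without any 1 library. None of the list was higher by edgeR (4 at an unadjusted p under 0.05, 0 with DESeq2). Of the 27, 16 had a log2 fold change above 0, and the median was 0.13. Of 7 tested caveolins and cavins, CAVIN2 was higher and CAVIN1, the core cavin, was lower, with 79.1, 67.0 and 73.6 CPM in CTRL and 47.8, 57.3 and 57.6 CPM in IND. The call of CAVIN1 was lost without CTRL replicates 1 or 3 or IND replicates 1 or 2 (adjusted p up to 0.116 by edgeR), and it was not called with library totals as scaling.

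Ion channel genes were called in both directions, 4 higher and 6 lower of 51 tested. After HCN4, the largest falls were those of KCNJ3, KCNMA1 and CACNA1C. KCNJ3, an inward rectifier of the atrium and neurons, had 37.7, 51.7 and 42.4 CPM in CTRL and 19.8, 20.1 and 20.2 CPM in IND, with nearly equal IND values and a log2 fold change of -1.13 ± 0.12 (SE). KCNMA1, the large-conductance calcium-activated potassium channel, had 74.3, 55.5 and 68.2 CPM in CTRL and 39.3, 28.5 and 23.7 CPM in IND, and CACNA1C, the L-type calcium channel of the heart, had 18.9, 13.1 and 14.3 CPM in CTRL and 10.6, 8.52 and 6.12 CPM in IND. The higher genes included KCND2, KCNK1 and CACNA1I. KCNK1, a two-pore potassium channel, had 4.08, 4.97 and 4.19 CPM in CTRL and 12.0, 8.41 and 7.67 CPM in IND, a log2 fold change of 1.08 ± 0.20 (SE). HCN4, KCNJ3 and KCNK1 held without any 1 library. KCND2 and CACNA1I had log2 fold changes of 1.26 and 1.05, and they did not hold. They were lost without CTRL replicates 2 or 3 or IND replicate 2 (adjusted p up to 0.184 by edgeR) for KCND2 and CTRL replicates 1 or 3 or IND replicates 2 or 3 (adjusted p up to 0.125 by edgeR) for CACNA1I, and the falls without CTRL replicate 1 (adjusted p = 0.114 by edgeR) for KCNMA1 and CTRL replicate 1 or IND replicates 2 or 3 (adjusted p up to 0.143 by edgeR) for CACNA1C.

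The HOX genes, which set position along the body axis, had fitted values below CTRL. Of 21 tested, 5 were lower and none was higher by edgeR (0 at an unadjusted p under 0.05, 0 with DESeq2). All 21 had a log2 fold change below 0 (20 with library totals as scaling), and the median was -0.70. The count of lower HOX genes was 2 without CTRL replicate 1, 3 without CTRL replicate 3, IND replicate 2 or IND replicate 3, 10 without IND replicate 1, and 2 in 1 fit over all 33 libraries. The called genes named here are anterior members of the B and C clusters. Of the 39 HOX genes listed, 21 were tested, and those not tested had at most 27 counts in any library. Posterior members such as HOXA11, HOXC10 and HOXD10 had no count at day 6 and could not be called. HOXB1, active in the hindbrain and the early mesoderm, had 248, 188 and 181 CPM in CTRL and 139.8, 126 and 114 CPM in IND. HOXB3 had 134, 102 and 106 CPM in CTRL and 81.7, 64.6 and 63.9 CPM in IND, and HOXB4 had 85.7, 76.9 and 71.0 CPM in CTRL and 58.4, 57.3 and 45.1 CPM in IND. HOXC4 had 11.8, 11.8 and 12.96 CPM in CTRL and 9.31, 7.55 and 7.04 CPM in IND. The log2 fold changes of HOXB1, HOXB3, HOXB4 and HOXC4 were -0.70 ± 0.12 (SE), -0.70 ± 0.12 (SE), -0.54 ± 0.12 (SE) and -0.62 ± 0.16 (SE). HOXB1 and HOXB3 held without any 1 library. HOXB4 was lost without CTRL replicate 1 or IND replicate 3 (adjusted p up to 0.0717 by edgeR), and HOXC4 without CTRL replicates 1, 2 or 3 or IND replicates 2 or 3 (adjusted p up to 0.208 by edgeR). Of the 33 other forkhead genes tested, FOXP1 and FOXP2 were higher, and FOXO1 and FOXF2 lower. That is 12.1% of the list, against 3.66% of all genes tested. FOXP1 had 25.04, 31.7 and 30.2 CPM in CTRL and 49.2, 43.6 and 38.4 CPM in IND. FOXP2 had 2.93, 3.86 and 3.96 CPM in CTRL and 8.20, 4.62 and 6.97 CPM in IND. FOXF2, a factor of splanchnic mesenchyme, had 22.4, 25.6 and 20.4 CPM in CTRL and 13.7, 17.2 and 16.9 CPM in IND. None of these calls held throughout. They were lost without IND replicate 2 (adjusted p = 0.0601 by edgeR) for FOXP1, CTRL replicates 1, 2 or 3 or IND replicates 1 or 3 (adjusted p up to 0.205 by edgeR) for FOXP2 and CTRL replicates 1, 2 or 3 or IND replicates 1, 2 or 3 (adjusted p up to 0.162 by edgeR) for FOXF2, and with library totals as scaling neither FOXO1 nor FOXF2 was called.

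Genes of the integrated stress response and of one-carbon metabolism, which the factor ATF4 turns on when amino acids are scarce, were among those that fell. Of 37 tested, 12 were lower and none was higher by edgeR (0 at an unadjusted p under 0.05, 0 with DESeq2). Of the 37, 35 had a log2 fold change below 0 (32 with library totals as scaling, with 9 called lower), and the median was -0.33. CHAC1, which degrades glutathione, had 22.7, 20.03 and 15.7 CPM in CTRL and 6.97, 10.6 and 8.18 CPM in IND. ATF3, a stress-induced transcription factor, had 20.7, 20.5 and 20.8 CPM in CTRL and 9.60, 10.3 and 11.0 CPM in IND, with CTRL values that differed by little (log2 fold change -1.01 ± 0.13 (SE), edgeR quasi-likelihood test, Benjamini-Hochberg adjusted p = 0.000269). SLC7A5, the transporter of large neutral amino acids, had 595, 506 and 419 CPM in CTRL and 231, 278 and 265 CPM in IND, a log2 fold change of -0.97 ± 0.12 (SE). TRIB3, a pseudokinase, had 11.1, 11.2 and 8.17 CPM in CTRL and 4.52, 6.56 and 6.10 CPM in IND. CHAC1 had a log2 fold change of -1.18 ± 0.18 (SE) and TRIB3 of -0.82 ± 0.19 (SE). The call of TRIB3 was lost without CTRL replicates 1 or 2 or IND replicates 1 or 2 (adjusted p up to 0.122 by edgeR), and those of CHAC1, ATF3 and SLC7A5 held without any 1 library. Without 1 library, between 8 and 10 genes of the list were lower.

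Of the 34 tested genes of steroid synthesis and nuclear receptors, 3 were higher and 1, STAR, was lower. That is 11.8% of the list, against 3.66% of all genes tested. HSD3B2, an enzyme of progesterone synthesis, had 0.0604, 0 and 0 CPM in CTRL and 0.269, 0.260 and 0.297 CPM in IND, from 2, 0 and 0 counts in CTRL and 10, 11 and 13 in IND. AKR1C1, which inactivates progesterone, had 1.36, 1.72 and 1.78 CPM in CTRL and 3.60, 3.17 and 2.72 CPM in IND, and ESRRG, an orphan nuclear receptor, had 4.02, 5.26 and 4.93 CPM in CTRL and 7.37, 7.51 and 9.41 CPM in IND. The log2 fold changes were 3.72, 0.96 and 0.77, in that order. The rises of HSD3B2 and AKR1C1 were lost whichever library was left out (adjusted p up to 0.210 and 0.166 by edgeR), and that of ESRRG without CTRL replicates 1 or 3 or IND replicates 2 or 3 (adjusted p up to 0.147 by edgeR). CYP19A1, the aromatase gene, had too few counts to be tested. Of 53 tested genes of the cell cycle and DNA replication, 4 were lower and none was higher by edgeR (1 at an unadjusted p under 0.05, 0 with DESeq2). The share called was 7.55%, against 3.66% of all genes tested. With library totals as scaling 1 was lower, and the median was -0.18 with TMM. CDKN2B, a CDK inhibitor induced by TGF-beta, had 5.38, 4.31 and 4.43 CPM in CTRL and 1.69, 1.18 and 1.99 CPM in IND, a log2 fold change of -1.53 ± 0.25 (SE) that held without any 1 library. CCND3, CDK6 and MCM7, which drive the cycle and replication, had log2 fold changes of -0.54, -0.36 and -0.40 and did not hold. They were lost without CTRL replicate 1 or IND replicate 2 (adjusted p up to 0.166 by edgeR) for CCND3, CTRL replicates 2 or 3 or IND replicates 1, 2 or 3 (adjusted p up to 0.209 by edgeR) for CDK6 and CTRL replicate 3 or IND replicates 2 or 3 (adjusted p up to 0.118 by edgeR) for MCM7. Of the 33 tested genes of glycolysis and the hypoxia response, EGLN3 and NDRG1, both induced by hypoxia, were higher. That is 6.06% of the list, against 3.66% of all genes tested. EGLN3 had 11.4, 12.4 and 9.26 CPM in CTRL and 17.8, 23.0 and 23.6 CPM in IND, a log2 fold change of 0.96 ± 0.15 (SE) that held without any 1 library, and NDRG1 had 36.9, 43.8 and 45.5 CPM in CTRL and 48.7, 70.0 and 60.8 CPM in IND, a call lost without CTRL replicates 1, 2 or 3 or IND replicates 2 or 3 (adjusted p up to 0.296 by edgeR). Of 25 cholesterol synthesis genes, none was called by edgeR (1 higher and 10 lower at an unadjusted p under 0.05, 0 higher and 2 lower with DESeq2). Their median was -0.22, with a log2 fold change of -0.42 for MVD. Of 13 mitochondrially encoded mRNAs, none was called by edgeR (0 higher and 0 lower at an unadjusted p under 0.05, 0 higher and 0 lower with DESeq2), and MT-ND1 and MT-ND3 had log2 fold changes of -0.25 and 0.22.

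**Figure D4:**
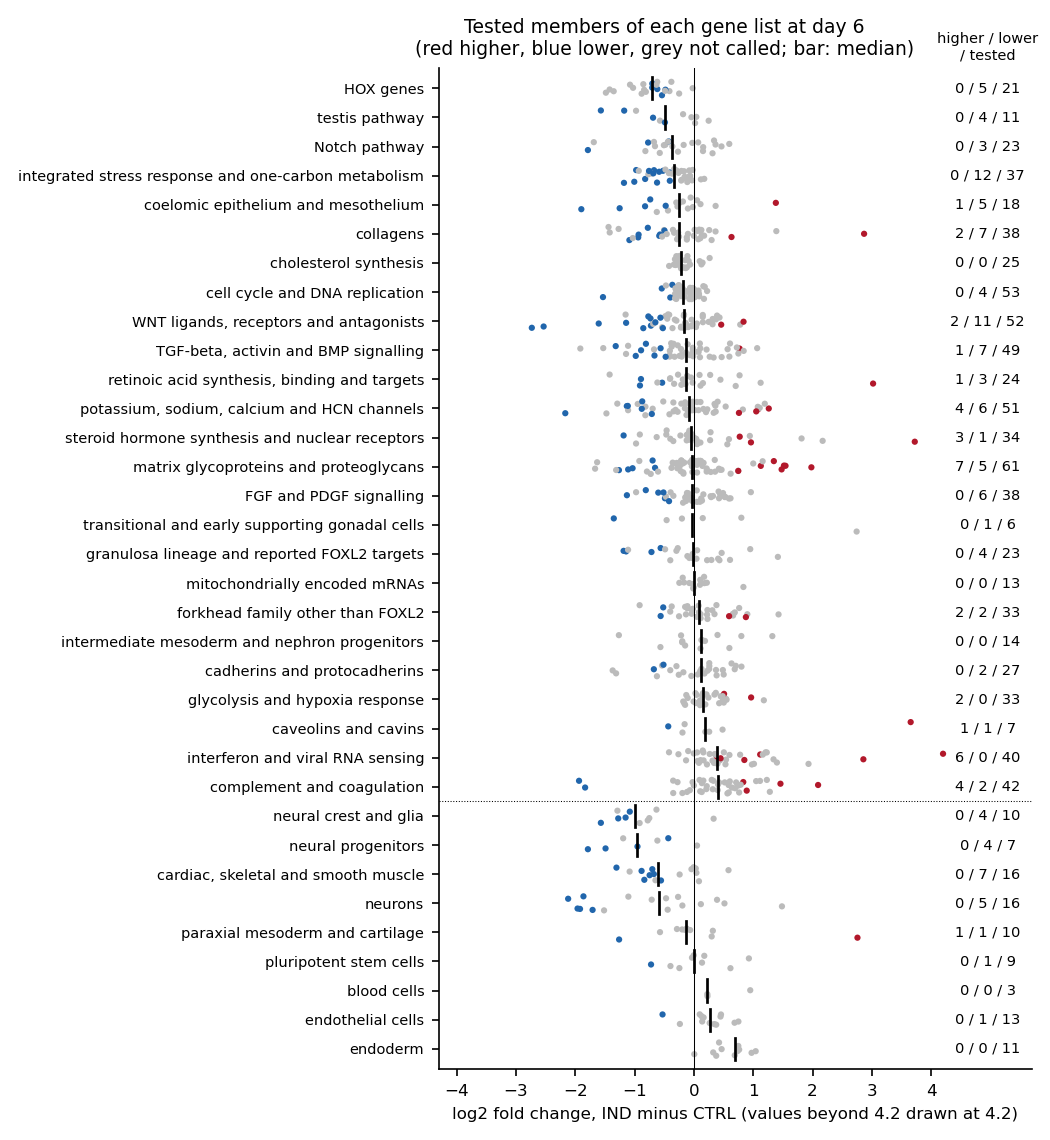
Log2 fold change between IND and CTRL (horizontal axis) of every tested member of 25 gene lists and, below the dotted line, 9 lists of cell type markers; red members were higher, blue members lower, grey members not called, and black bars are medians. The numbers at the right count the members higher, lower and tested. All 21 HOX genes lie below 0 (20 with library totals as scaling), and the interferon list has 6 higher and no lower member.

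Markers of other cell types moved with the groups and are given for the whole lists. Of 16 tested neuronal markers, 5 were lower and none was higher by edgeR (1 at an unadjusted p under 0.05, 1 with DESeq2), with a median log2 fold change of -0.59 and 4 genes above 0. Their summed level was 116 to 144 CPM in CTRL and 59.8 to 80.5 CPM in IND, so that the groups did not overlap. Of the lower genes, NEUROG2, a proneural factor, had 6.37, 4.15 and 6.70 CPM in CTRL and 1.51, 1.23 and 1.99 CPM in IND, and PRPH, the filament protein peripherin, had 6.55, 6.16 and 7.01 CPM in CTRL and 1.64, 1.92 and 1.64 CPM in IND. Among the genes above 0, ISL1, a factor of motor neurons and of cardiac progenitors named here after its values were seen, had 1.06, 3.39 and 1.33 CPM in CTRL and 4.98, 5.00 and 6.21 CPM in IND. Its groups did not overlap, and with a log2 fold change of 1.48 ± 0.37 (SE) it did not pass the test (edgeR quasi-likelihood test, adjusted p = 0.0506), while 7 of 15 alternatives called it higher, DESeq2 among them (adjusted p from 6.29e-07 to 0.183). ELAVL4, SYT4 and POU4F1, also named after their values were seen, had log2 fold changes of 0.51, 0.39 and 0.12 and were not called. TUBB3, a tubulin of neurons named here after its values were seen, had 17, 15 and 19 counts in CTRL and 16, 2 and 22 in IND. Of 10 neural crest and glial markers, 4 were lower, SOX10 and TFAP2B among them, and the sum was 237 to 350.3 CPM in CTRL and 148 to 203 CPM in IND. TFAP2B, a crest factor, had 14.3, 8.76 and 12.9 CPM in CTRL and 5.22, 3.84 and 5.78 CPM in IND. Of the 10 crest and glial markers, 9 had a log2 fold change below 0 and 1, EDNRB, above. EDNRB, named here after its values were seen, had 23.0, 21.0 and 26.7 CPM in CTRL and 27.3, 28.9 and 32.7 CPM in IND. The groups did not overlap for EDNRB, with a log2 fold change of 0.33 ± 0.12 (SE). It was not called (edgeR quasi-likelihood test, unadjusted p = 0.0168, adjusted p = 0.1999). Of 7 neural progenitor markers, 4 were lower, with a sum of 297 to 387 CPM in CTRL and 246 to 271 CPM in IND. Their median was -0.95, with 6 markers below 0 and 1 above (0.05). LHX2, ZIC1 and NES had log2 fold changes of -1.49, -0.95 and -0.43, and were lost without CTRL replicate 1 or IND replicate 2 (adjusted p up to 0.0565 by edgeR) for LHX2, CTRL replicates 1 or 3 or IND replicate 2 (adjusted p up to 0.166 by edgeR) for ZIC1 and CTRL replicates 1 or 3 or IND replicates 2 or 3 (adjusted p up to 0.216 by edgeR) for NES. Of 16 markers of cardiac, skeletal and smooth muscle, 7 were lower, with a sum of 1011 to 1181 CPM in CTRL and 681 to 705 CPM in IND. The median log2 fold change was -0.60, with 12 markers below 0 (10 with library totals as scaling) and 4 above, up to 0.58. MYL7, the atrial light chain, had 283, 244 and 191 CPM in CTRL and 84.8, 117 and 89.1 CPM in IND. TNNI1, a slow troponin, had 133, 119.8 and 126 CPM in CTRL and 72.9, 73.7 and 58.6 CPM in IND. TNNT2, the cardiac troponin T, had 94.9, 68.8 and 81.0 CPM in CTRL and 51.7, 48.8 and 45.2 CPM in IND. In MYL4, another light chain of the atrium, the values were 17.7, 22.6 and 20.6 CPM in CTRL and 9.33, 12.1 and 12.7 CPM in IND. The groups were apart in all 4 genes, and these 4 calls held without any 1 library. In bulk RNA, fewer cells of a type and less RNA per cell cannot be told apart, and the part of cell composition in the falls of HCN4, KCNJ3, SOX10 and CNTN2 was not tested.

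Summed levels of the other cell type lists overlapped between the groups. Of 11 endoderm markers, none was called by edgeR (2 higher and 0 lower at an unadjusted p under 0.05, 0 higher and 0 lower with DESeq2). All 11 had a log2 fold change above 0, also with RLE size factors or library totals as scaling, and the median was 0.69 at day 6 and 1.69 at day 8. The summed level was 229, 424 and 244 CPM in CTRL and 229.8, 419.9 and 658 CPM in IND. CTRL replicate 2 was close to IND replicate 2, and IND replicate 3 was the highest. FOXA2, an endoderm factor named here after its values were seen, had 693, 1218 and 650 counts in CTRL and 627, 1526 and 2761 in IND. CXCR4 and HHEX had log2 fold changes of 0.47 and 0.75. Of 13 endothelial markers (7.69% called, against 3.66% of all genes tested), KDR, the VEGF receptor, was lower. KDR had 107, 88.6 and 92.7 CPM in CTRL and 72.2, 60.9 and 66.6 CPM in IND. Its call was lost without IND replicate 2 (adjusted p = 0.0858 by edgeR). Of the 13 markers, 11 had a log2 fold change above 0, and the median was 0.27 at day 6 and 0.99 at day 8. At an unadjusted p under 0.05 by edgeR, 3 were higher and 1 was lower at day 6. At day 8, 9 were called higher and 0 lower. The summed level was 221 to 272 CPM in CTRL and 221 to 282 CPM in IND. Of 9 pluripotency markers, L1TD1 was lower (11.1% called, against 3.66% of all genes tested). It had 11.8, 12.1 and 14.1 CPM in CTRL and 6.72, 7.17 and 9.09 CPM in IND. Its call was lost without CTRL replicates 1 or 3 or IND replicates 1 or 2 (adjusted p up to 0.125 by edgeR). HBG1 and HBZ, globins of red cells, had no count, and of the 3 blood markers tested, among them RUNX1 and ITGA2B, none was called by edgeR (0 higher and 0 lower at an unadjusted p under 0.05, 0 higher and 0 lower with DESeq2). Of 10 markers of paraxial mesoderm and cartilage, MEOX2 and UNCX, homeobox factors of the somite, changed in opposite directions. MEOX2 had 0.272, 0.291 and 0.355 CPM in CTRL and 2.04, 2.01 and 2.24 CPM in IND, a log2 fold change of 2.76 ± 0.35 (SE) that held without any 1 library. UNCX had 2.23, 2.14 and 1.89 CPM in CTRL and 0.861, 0.994 and 0.754 CPM in IND, a call lost without CTRL replicates 1, 2 or 3 or IND replicates 2 or 3 (adjusted p up to 0.0915 by edgeR).

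Whether the day 6 response lasted was read from day 8, where 6 other libraries were tested in the same way. At day 8, 14.2% of 19433 genes were called, 7.49% higher and 6.67% lower. Of the 246 genes higher at day 6, 185 (75.2%) were also higher at day 8 (12.7% of the 1455 genes higher on that day). Of the 454 genes lower at day 6, 332 (73.1%) were lower at day 8 (25.6% of 1297). Of the 700 genes, 1 was called in the opposite direction at day 8. The shares were smaller on later days, when fewer genes were called in all (170 higher and 234 lower at day 10). Of the higher genes, 53, 80 and 91 were higher at day 10, 12 and 14. Of all genes tested on these days, 0.856%, 2.38% and 3.21% were higher. Of the lower genes, 106, 144 and 117 were lower, against 1.18%, 3.04% and 5.22% of all genes tested. Calls in the opposite direction were 0, 1 and 6 of the higher genes and 3, 5 and 17 of the lower genes at day 10, 12 and 14. At day 14, 79.0% of the higher genes and 68.3% of the lower genes that were tested had the sign of day 6, against 97.5% and 96.2% at day 8. These shares were 85.3% and 83.8% at day 10, and 82.8% and 84.7% at day 12. At day 8 the log2 fold changes of GPR183 and TLR3 were 5.62 and 5.22, against 6.11 and 4.59 at day 6. CES1, with 2.57 at day 6, had 0.03 at day 8, and WNT2, with -2.53, had -0.42, and neither was called on day 8. The call of a gene on 1 day alone does not show that its effect differed, so the difference between the days was tested over the 12 libraries. By this test 69 of 20507 genes (0.336%) differed between the days, among them 4 of the 246 higher and 9 of the 454 lower genes of day 6. The effect was larger at day 8 for 3 of these 4 and 3 of these 9 genes, and smaller or opposite for the other 1 and 6.

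**Figure D5:**
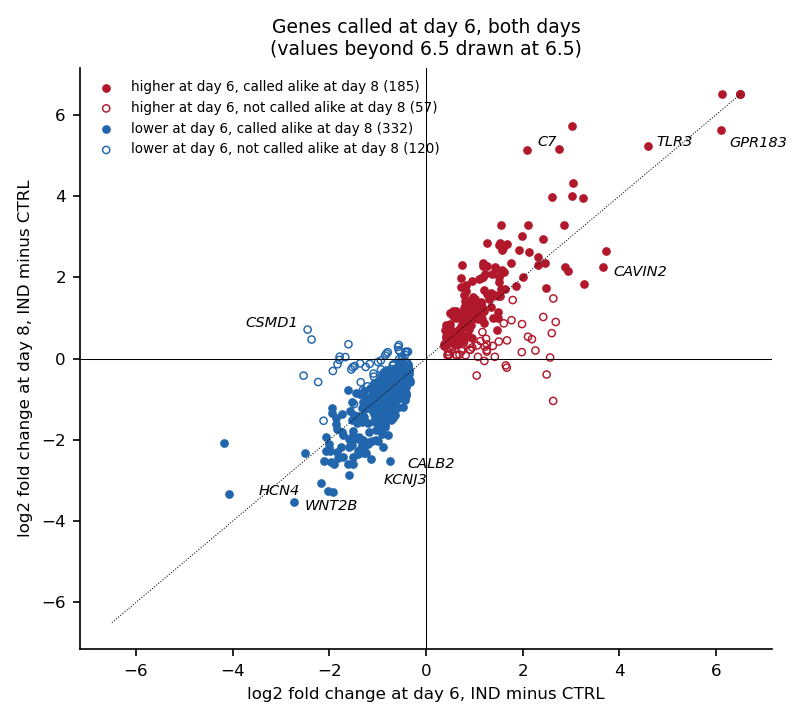
Log2 fold change between IND and CTRL at day 8 (vertical axis) against that at day 6 (horizontal axis) for the genes called at day 6 and tested at day 8, with filled points for genes called in the same direction on both days and values beyond 6.5 drawn at 6.5. The filled points are 185 of the higher and 332 of the lower genes, and CSMD1 lies below 0 at day 6 and above 0 at day 8.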

How the data were processed

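Poly-A RNA of 6 libraries (3 CTRL and 3 IND, day 6) was analysed, with 3 of day 4 and those of later days for comparison. Libraries were non-directional and sequenced in pairs, so a gene cannot be told from one that overlaps it on the other strand. Per the labels and the study's methods, reads were trimmed with fastp 0.23.2, mapped to GRCh38 with HISAT2 2.0.5 and counted with featureCounts 1.5.0-p3, and the authors deposited the counts of each gene without normalization, and FPKM computed from them. Genes and coordinates equal those of GENCODE 29. The counts were tested with edgeR 4.0.16 in R 4.3.3 (filterByExpr, TMM, robust quasi-likelihood test, Benjamini-Hochberg adjustment over all genes tested, threshold 0.05), with the 6 libraries alone in the fit. The SE is the log2 fold change divided by the root of the F statistic. Day 8 was tested in the same way, and the interaction of day and induction over 12 libraries.

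The 6 libraries had 34195427 to 43346552 counts, and wells of the same group differed beyond counting error (chi-squared per gene 14.1 to 28.3). Intervals and floors cover counting error only. The members and the 35 gene lists were chosen with earlier results of these data known. The genes named were those of the FOXL2 locus, those of the 4 lists on gonadal stages, up to 10 genes per direction with the largest log2 fold changes among called genes whose mean log2 CPM was 1 or more and whose groups did not overlap, and per list up to 4 called genes per direction, or 2 with the smallest p where none was called; some of these genes are not reported here. Alternatives were DESeq2 1.42.0, RLE size factors, library totals, no filter, a mean of at least 50 counts, a minimum log2 fold change of 1, a fit of the 33 libraries together, the replicate block, limma 3.58.1 (limma-trend) on log2(FPKM + 1) and log2(FPKM + 0.1) from the deposited FPKM, and each library left out. The tests were run first on simulated data. RefSeq promoters (GRCh38.p14) were read for the FOXL2 locus. The guide sequences were not analysed here.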

Additional observations from a re-analysis of the deposited data

Results flagged for a closer look

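The induction effect of 5 named genes differed between day 6 and day 8 by the edgeR quasi-likelihood test of the interaction over 12 libraries, with Benjamini-Hochberg adjustment over 20507 genes. C7, a complement component, rose more at day 8, from 2.09 at day 6 to 5.13 at day 8 on the log2 scale, a difference of 3.00 ± 0.47 (SE) (adjusted p = 0.00349 by edgeR). CSMD1 was lower at day 6 (-2.37) and had 0.47 at day 8 without passing the test on that day, a difference of 2.82 ± 0.38 (SE) (adjusted p = 0.00107 by edgeR). CALB2 fell more at day 8, with -0.74 and -2.53, a difference of -1.81 ± 0.28 (SE) (adjusted p = 0.00298 by edgeR). KCNJ3 fell more at day 8, with -1.13 and -2.48, a difference of -1.37 ± 0.17 (SE) (adjusted p = 0.000845 by edgeR). FSHR, the receptor of follicle-stimulating hormone, was not called at day 6 (-0.49) and was higher at day 8 (1.03), a difference of 1.49 ± 0.31 (SE) (adjusted p = 0.0404 by edgeR). In groups of 3 no library was tested as an outlier.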

How the results depend on the processing

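The count of 700 genes (246 higher, 454 lower) depended on the setting. It was 1001 with DESeq2 and 699 with RLE, 464 (155 higher) in 1 fit over all 33 libraries, 360 (101 higher, 259 lower) and 319 (92 higher, 227 lower) with limma-trend on log2(FPKM + 0.1) and log2(FPKM + 1), 1209 (495 higher, 714 lower) without the filter and 274 (123 higher, 151 lower) with a log2 fold change of at least 1. With 1 library left out, the count lay between 348 (without IND replicate 2) and 915 (without IND replicate 1), with 104 to 423 higher and 244 to 503 lower. Without CTRL replicate 1 it was 402 and without CTRL replicate 3 it was 451. Same-numbered CTRL and IND libraries deviated together with correlations of 0.0428, 0.0383 and -0.166, so the number does not pair them, and the replicate block gave 922 genes (362 higher, 560 lower). Lists moved too: without IND replicate 1 the higher glycolysis and hypoxia genes were 8, not 2, and without CTRL replicate 2 or IND replicate 3 the lower Notch genes were 6, not 3, and the lower neural crest and glial markers 8 and 7, not 4. The 517 genes called in the same direction at day 8 became 181 with a log2 fold change of at least 1 and 298 to 613 with 1 library left out. The 69 genes that differed between days became 279 with DESeq2 and 44 to 254 with 1 library left out. Of 124 named genes that were called, 40 kept their call under every alternative, 60 lost it without some library and 58 with limma-trend, and none of 175 named genes changed direction while called. Of 51 named genes not called, 13 passed the threshold under some alternative. The causes were not tested. Depth limits genes under 3 counts per library, and 3 wells of 1 differentiation limit all results.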

Other observations

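Families defined by gene symbol after the values were seen are given as counts, without a test. Of all genes tested, 3.66% were called. Of 20 cytosolic aminoacyl-tRNA synthetase genes, whose products load amino acids onto tRNA, 7 were lower (AARS, CARS, GARS, IARS, MARS, VARS and YARS) and none was higher by edgeR (0 at an unadjusted p under 0.05, 0 with DESeq2). The 7 log2 fold changes lay between -0.54 and -0.34, and 2.37% of all genes were lower. MARS had 224, 193 and 195 CPM in CTRL and 146, 148 and 126 CPM in IND, and it was the 1 call of the 7 that held without any 1 library. The other 6 were lost without at least 1 library. Of the 17 mitochondrial synthetases, none was called by edgeR (0 higher and 1 lower at an unadjusted p under 0.05, 0 higher and 0 lower with DESeq2). Of 27 amino acid transporters of the SLC1, SLC3, SLC7 and SLC38 families, 6 were lower and 1 was higher. SLC7A1, a transporter of cationic amino acids, had 99.0, 82.1 and 83.1 CPM in CTRL and 51.5, 58.1 and 53.4 CPM in IND, and SLC3A2, the heavy chain partner of SLC7A5, had 303, 272 and 261 CPM in CTRL and 168, 187 and 164 CPM in IND. The 94 tested genes of cytosolic ribosomal proteins had a median log2 fold change of 0.00, and none was called by edgeR (1 higher and 3 lower at an unadjusted p under 0.05, 0 higher and 0 lower with DESeq2).

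Axon guidance genes were called in both directions, 5 higher and 10 lower of 67. The 2 neuropilin genes, co-receptors of semaphorins and VEGF, moved in opposite directions. NRP2 had 208, 138 and 168 CPM in CTRL and 333, 321 and 318 CPM in IND, and NRP1 had 157, 125 and 156 CPM in CTRL and 95.2, 80.2 and 70.0 CPM in IND. The ligands SLIT3 and SLIT2 did so too, with 22.1, 16.0 and 20.5 CPM in CTRL and 39.7, 30.5 and 41.4 CPM in IND for SLIT3 and 80.8, 79.3 and 104 CPM in CTRL and 52.4, 38.3 and 48.0 CPM in IND for SLIT2. The log2 fold changes of NRP2, NRP1, SLIT3 and SLIT2 were 0.92 ± 0.12 (SE), -0.84 ± 0.12 (SE), 0.93 ± 0.14 (SE) and -0.93 ± 0.13 (SE), and all 4 calls held without any 1 library. SEMA3D had 5.13, 10.1 and 6.56 CPM in CTRL and 16.7, 21.1 and 27.3 CPM in IND, a call lost without CTRL replicate 3 (adjusted p = 0.0764 by edgeR). SEMA5A had 88.2, 87.3 and 91.3 CPM in CTRL and 40.2, 45.9 and 48.9 CPM in IND. Of 13 T-box genes, 4 were lower, TBX18 together with TBX2, TBX3 and TBX5, factors of the heart and limbs. The median log2 fold change of the 13 was 0.13, and 6 lay below 0 (5 with library totals as scaling). At an unadjusted p under 0.05 there were 1 higher and 5 lower. TBX2 had 71.8, 66.4 and 58.7 CPM in CTRL and 38.4, 31.2 and 23.8 CPM in IND, a call lost without CTRL replicate 1 (adjusted p = 0.0565 by edgeR). TBX3 had 55.6, 59.1 and 51.8 CPM in CTRL and 34.9, 36.4 and 38.6 CPM in IND. TBX5 had 17.5, 24.0 and 18.7 CPM in CTRL and 10.8, 12.0 and 12.3 CPM in IND. Of 13 Hedgehog genes, BOC, CDON and GAS1, the co-receptors of the ligand, were lower, with log2 fold changes of -0.82 ± 0.13 (SE), -0.44 ± 0.12 (SE) and -0.49 ± 0.11 (SE). CDON was lost without CTRL replicates 1 or 3 or IND replicates 1, 2 or 3 (adjusted p up to 0.233 by edgeR), and GAS1 without CTRL replicates 1 or 3 or IND replicates 2 or 3 (adjusted p up to 0.126 by edgeR). Of 41 receptor subunits for GABA, glutamate and acetylcholine, 4 were lower and 1 was higher. The median log2 fold change of the 41 was 0.15, 17 lay below 0, and at an unadjusted p under 0.05 there were 10 higher and 6 lower. GABRA2, one of those that fell, had 25.7, 35.3 and 35.3 CPM in CTRL and 14.1, 16.5 and 13.5 CPM in IND.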
